A study of Mus musculus with 3 samples.

Results

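Hmga1, Hmga2, Lin28a, Lin28b, Igf2bp1, Igf2bp2 and Igf2bp3 are 7 genes known for high activity in fetal tissue and a decline as development proceeds. They were found by symbol among the 28868 nuclear-encoded features listed on 3 plates of single mouse kidney cells. The genes were chosen by measured values of these same plates, their lower level after culture. The levels on whole plates, and in classes of their wells, are therefore given as a description. The question asked was whether the lower level held in every class of cells that the plates allow to be told apart.

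Each plate was 1 group with 1 sample: uncultured E11.5 kidney cells, E12.5 kidney cells after 5 days of explant culture, and E11.5 kidney cells after culture for 7 days by the sample title or 5 days by its stage label. All cells were C57BL/6 with the modification LGR6-EGFP-IRES-CreERT2, and both cultured groups carried ROSA26-tdTomato as well. The reporter alleles put the study in lineage tracing of cells in which Lgr6 was active, and no gate of the sort is named in the labels. By their run codes both cultured plates shared 1 run and the uncultured plate had its own, so culture, the ROSA26-tdTomato allele and the run cannot be told apart. The days that passed during culture cannot be told apart from these either, since no uncultured plate of a later age was included. The E12.5 cultured plate differed from the uncultured plate in starting stage as well. How many embryos each plate drew on was not stated in those labels.

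After filtering, 337, 200 and 300 wells remained on the uncultured, E12.5 cultured and E11.5 cultured plates, with 4159790, 2349130 and 3210840 counts. Median depth per well was 6732, 9212 and 8993 counts. On the uncultured plate 32 wells deeper than 3 times the median held 45.6% of all counts, against 15.0% in 7 wells and 10.6% in 9 wells on the cultured plates. All 8 nephron progenitor markers were found on each plate, with a summed level of 1352, 382 and 238 counts per 1000000 (CPM). The 8 stromal markers summed to 2757, 19954 and 26347 CPM, and the 10 markers of cycling cells to 2910, 1364 and 1197 CPM. Their part in the results below was not tested. In a pool of wells, fewer cells with a transcript and less transcript per cell cannot be told apart.

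LIN28A and LIN28B are RNA-binding proteins that block the maturation of let-7, a family of microRNAs that accumulates as tissues mature. Mature let-7 in turn represses HMGA2, the LIN28 transcripts themselves and the IGF2BP proteins, which bind and stabilise fetal transcripts. HMGA1 and HMGA2 are small chromatin proteins that bend AT-rich DNA. In the fetal kidney LIN28B has been linked to the length of the period in which nephron progenitors persist.

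The libraries hold polyadenylated transcripts and no mature microRNA, so let-7 was not measured; its sequences are shown because they define the family known to target these genes. Of 11 mature mouse let-7 names in RefSeq (build GRCm38.p6), 10 share the seed GAGGUAG at bases 2 to 8, in capitals below, and let-7j alone differs there. Outside the seed the 3 members shown differ in a few letters.
mmu-let-7a-5p: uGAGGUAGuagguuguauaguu
mmu-let-7g-5p: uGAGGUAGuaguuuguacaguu
mmu-miR-98-5p: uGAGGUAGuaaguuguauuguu

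LIN28 proteins are known to hold on to the let-7 precursor by a GGAG motif in its loop. A search of the sense strand between the mature arms found GGAG in 8 of 11 let-7 hairpins and not in those of let-7b, let-7c-2 and miR-98. The first hairpin below holds it, in capitals, and the second does not. Hairpin let-7g lies at chr9:106178840-106178927 on the plus strand and let-7b at chr15:85707319-85707403 on the plus strand, both in GRCm38.p6.
let-7g hairpin: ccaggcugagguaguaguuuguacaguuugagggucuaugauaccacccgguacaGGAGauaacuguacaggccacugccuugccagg
let-7b hairpin: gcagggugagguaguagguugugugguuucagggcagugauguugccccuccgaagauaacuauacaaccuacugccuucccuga

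Hmga2 showed the largest difference of the 7 genes on the E11.5 cultured plate. It stood at 1297 CPM (95% Poisson interval 1263 to 1332) before culture, 96.2 CPM (84.1 to 110) on the E12.5 cultured plate and 94.99 CPM (84.6 to 106) on the E11.5 cultured plate. Intervals here and below cover counting error only, since each group was 1 plate. The level was 13.7-fold lower (exact interval 12.2 to 15.4) on the E11.5 cultured plate and 13.5-fold lower (11.8 to 15.5) after E12.5 culture. Of 15774 genes compared, 0.450% had a ratio as low or lower on the former, and 0.237% of 15179 on the latter.

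Single wells showed the same order. Hmga2 ranged from 0 to 5324 CPM over the 337 uncultured wells with a median of 1054 CPM. It ranged from 0 to 909 CPM over the 200 E12.5 cultured wells and from 0 to 742 CPM over the 300 E11.5 cultured wells, with a median of 0 on both. The ranges overlap, but the lower quartile of the uncultured wells, 673 CPM, lay above the upper quartiles of the cultured wells, 149.9 and 118 CPM. Kept wells held on average 1.13 Hmga2 counts after E12.5 and 1.02 after E11.5 culture. The medians and quartiles of the cultured wells thus rest on very few counts per well. The deepest single contribution to the Hmga2 counts was 9.27% on the uncultured plate, 5.75% and 6.56% on the others.

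**Figure D1:**
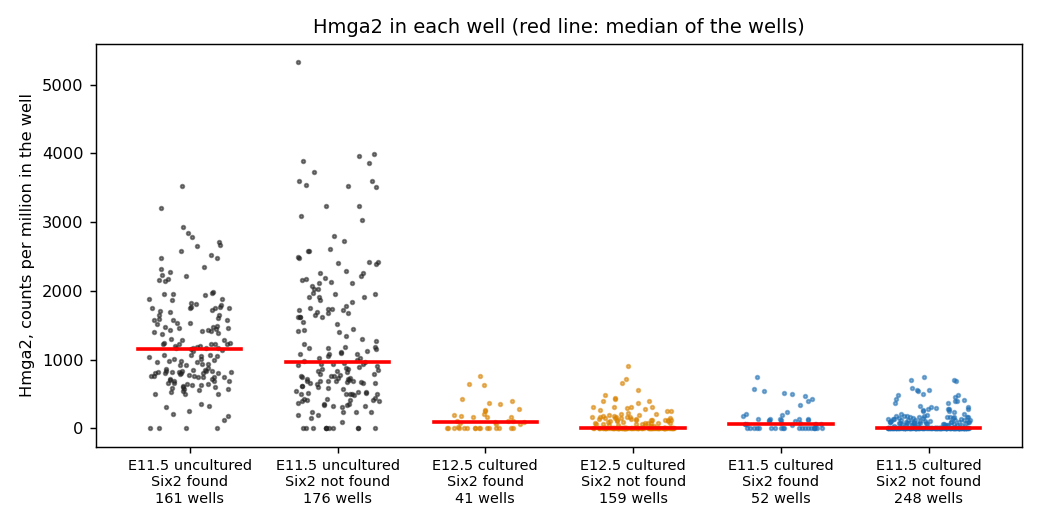
Hmga2 in CPM (y axis, linear) in every kept well, by plate and by whether a Six2 count was found in the well (x axis); red lines are medians over wells. The uncultured wells reach 5324 CPM, and no cultured well passes 909 CPM.

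Hmga1, the relative of Hmga2, had a level of 174 CPM (162 to 187) uncultured, 27.2 CPM (20.98 to 34.8) after E12.5 culture and 24.9 CPM (19.8 to 31.0) after E11.5 culture. That was 6.39-fold (4.94 to 8.38) and 6.99-fold (5.54 to 8.91) lower. One E11.5 cultured well alone held 23.8% of the 80 Hmga1 counts of its plate.

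Lin28b was low throughout: 75 counts, 18.0 CPM (14.2 to 22.6), on the uncultured plate and 7 counts, 2.18 CPM (0.877 to 4.49), on the E11.5 cultured plate, 8.27-fold lower (3.82 to 21.3). The E12.5 cultured plate held 0 counts, which allows up to 1.28 CPM (3 counts of the whole plate), and against that limit the level was at least 14.1-fold lower. The exact interval of the ratio, which also counts the error of the uncultured level, begins at 11.2-fold lower. Lin28a had 9 counts uncultured, 0 after E12.5 culture and 2 after E11.5 culture. Its ratio on the E11.5 cultured plate, 3.47-fold lower, had an interval of 0.719 to 33.0, which includes no difference.

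Among the IGF2 mRNA-binding proteins the differences were smaller and ran in the order Igf2bp3, Igf2bp1, Igf2bp2. Igf2bp3 stood at 402 CPM uncultured, 126 CPM after E12.5 culture and 94.99 CPM after E11.5 culture, 3.18-fold (2.81 to 3.61) and 4.24-fold (3.75 to 4.80) lower. Igf2bp1 stood at 313, 121 and 116 CPM, 2.58-fold (2.27 to 2.95) and 2.70-fold (2.41 to 3.04) lower. Igf2bp2 stood at 208, 116 and 112 CPM, 1.79-fold (1.56 to 2.06) and 1.86-fold (1.64 to 2.11) lower. Igf2bp2, the paralog that is known to persist in adult tissue, was the one gene of the 7 under 2-fold on the E11.5 cultured plate. That depended on the wells used. Without wells deeper than 3 times the plate median, 6 of 6 members compared were at least 2-fold lower there (11.1% of genes). In wells of even plate columns it was 6 of 6 (12.2%), and in those of odd columns 5 of 6 (12.1%).

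**Figure D2:**
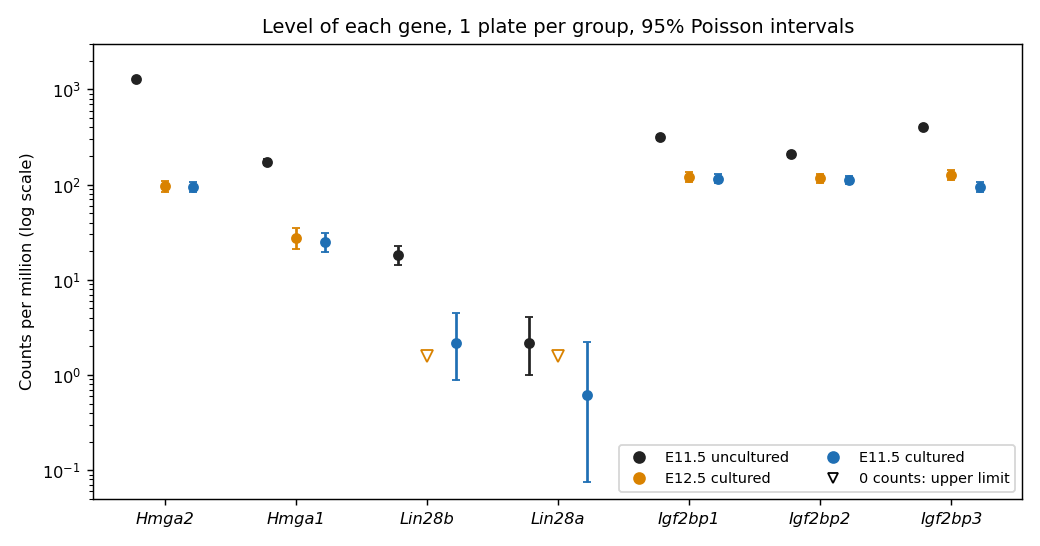
Level of each gene in CPM (y axis, log scale) on the 3 plates, as points with 95% Poisson intervals; open triangles are upper limits where a plate held 0 counts. Both cultured plates lie below the uncultured plate for each gene, with overlapping intervals for Lin28a only.

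A gene was called where its level differed at least 2-fold and the pair of plates held at least 10 counts of it. By this rule 6 of 7 members were lower on the E11.5 cultured plate, where 11.3% of all genes were, and 5 of 6 on the E12.5 cultured plate, where 13.0% were. The seventh, Lin28a, had 9 counts in the second pair and was not compared there. Both comparisons share the uncultured plate, and since the members were chosen on them nothing is read from the counts. The median log2 ratio of the members was -2.08 and -2.17, beside 0.07 and -0.01 over all genes compared.

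**Figure D3:**
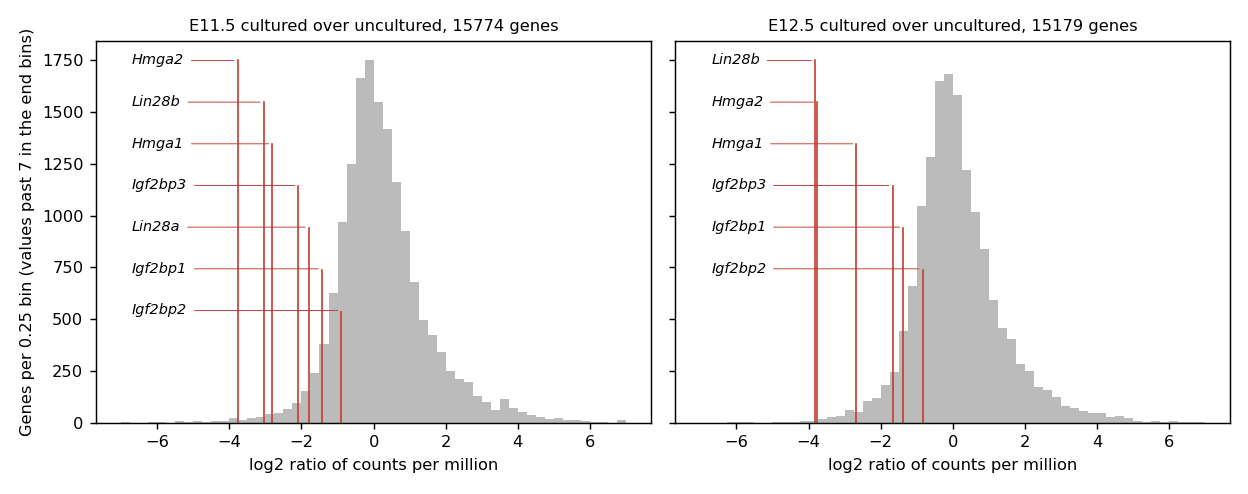
Number of genes (y axis) by log2 ratio of CPM, cultured over uncultured (x axis), for 15774 and 15179 genes; red lines mark the members, at 3 counts where a plate held 0. The members compared, 7 and 6, lie to the left of 0, with Igf2bp2 nearest to it.

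Between the cultured plates 0 of 5 members differed 2-fold, where 12.8% of 15347 genes did in either direction. The ratio of the E12.5 to the E11.5 cultured plate was 1.01 (0.849 to 1.21) for Hmga2, 1.09 (0.775 to 1.54) for Hmga1, 1.05 (0.894 to 1.23) for Igf2bp1 and 1.04 (0.885 to 1.22) for Igf2bp2. Igf2bp3 was higher on the E12.5 cultured plate, by 1.33-fold (1.13 to 1.57). Among wells with Six2 and fewer than 3 markers of each of the other classes described further on, 1 of 5 members differed 2-fold (15.6% of genes). That was Hmga1, 4.17-fold higher (1.41 to 16.7) on the E12.5 cultured plate, from 21 counts against 4.

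Together the 7 genes made up 2415 CPM of the uncultured plate, 487 CPM of the E12.5 cultured plate and 445 CPM of the E11.5 cultured plate. Hmga2 gave 53.7% of those member counts on the first plate and 19.7% and 21.3% on the others. These are shares of counts of transcript ends and not levels per length.

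Hmga2 was found in 95.5% of uncultured wells (exact binomial interval 92.8 to 97.5), 45.0% of E12.5 cultured wells (38.0 to 52.2) and 42.0% of E11.5 cultured wells (36.4 to 47.8). Depth favoured the cultured plates, so each well was thinned to 1000 counts. In 1 random draw the shares were 63.8% (58.4 to 68.9), 12.0% (7.84 to 17.3) and 6.67% (4.12 to 10.1). Averaged over all possible draws, they were 65.4%, 8.99% and 8.06%.

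Thinning left the order of the plates in place for Hmga1, at 12.7%, 2.47% and 1.55% of wells averaged over all draws. Igf2bp3 went from 31.1% uncultured to 12.0% and 8.02%, Igf2bp1 from 24.4% to 10.8% and 10.7%, and Igf2bp2 from 19.7% to 10.9% and 10.6%. Single draws were less steady: in the 1 drawn, Igf2bp2 was found in 20.2%, 20% and 12.0% of wells, and a second draw gave 8.50% on the E12.5 cultured plate. Lin28b was found in 1.91% of thinned uncultured wells on average, too few for a comparison at this depth, and in 14.5% of them (10.95 to 18.8) with all counts. The unthinned Lin28b shares on the cultured plates were 0 of 200 wells (exact upper limit 1.83%) and 2% (0.737 to 4.30).

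**Figure D4:**
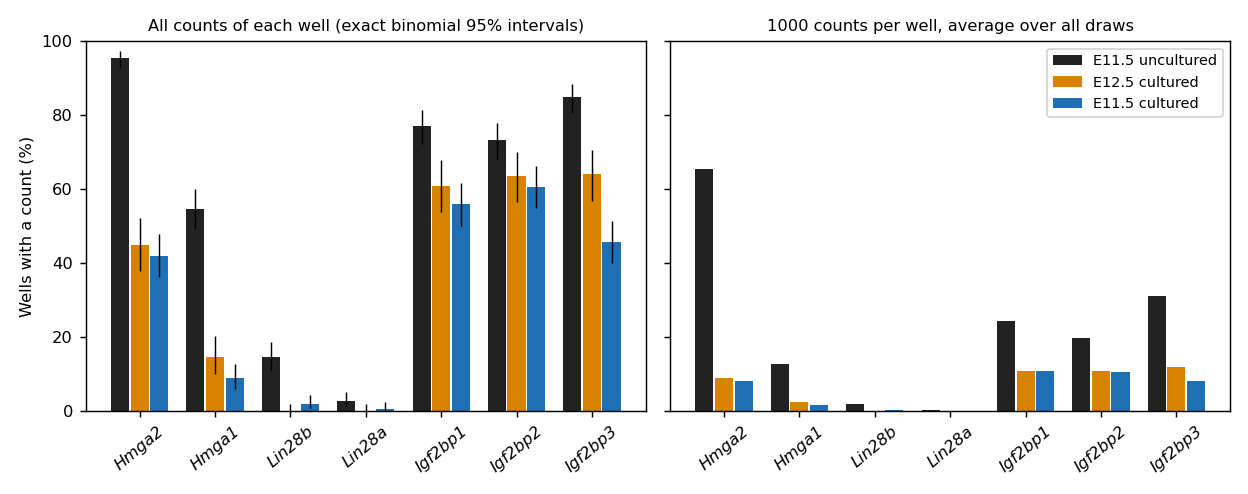
Percent of wells (y axis) with at least 1 count of each gene (x axis) on the 3 plates, with all counts of the well on the left (bars with exact binomial 95% intervals) and with 1000 counts per well on the right (averages over all possible draws). With equal depth Hmga2 drops from 65.4% of uncultured wells to 8.99% and 8.06%.

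Control wells, 15 on each plate, set the background. On the uncultured plate 8 of 15 held Hmga2, 16 of 13768 counts, which is 1162 CPM (664 to 1887) and close to the level of the plate. That is 1.07 Hmga2 counts per control well against 16.01 per kept well, at a mean depth of 918 and 12344 counts. The cultured plates held 1 and 2 Hmga2 counts in their control wells, 0.0667 and 0.133 per well against 1.13 and 1.02 per kept well. Hmga2 counts were thus also found in wells without a sorted cell, and the part of such free transcript in the kept wells was not tested. Lin28b and Lin28a had 0 counts in the control wells of each plate, which at their depth allows up to 218 CPM uncultured.

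Six2, the transcription factor that keeps nephron progenitors undifferentiated, was found in 161, 41 and 52 wells on the uncultured, E12.5 and E11.5 cultured plates. The class was not alike before and after culture: in Six2-expressing wells the nephron progenitor markers summed to 1828, 893 and 602 CPM and the stromal markers to 2050, 23416 and 19826 CPM. In Six2-negative wells the stromal markers summed to 4342, 18519 and 27995 CPM. The part of this change in the ratios within classes was not tested. In Six2-expressing wells Hmga2 stood at 1328, 142 and 129.7 CPM, and in Six2-negative wells at 1230, 77.1 and 86.2 CPM. The level was lower after culture in both classes, by 10.2-fold (8.25 to 12.9) and 14.3-fold (12.4 to 16.5) on the E11.5 cultured plate and by 9.33-fold (7.63 to 11.52) and 15.95-fold (13.3 to 19.3) on the E12.5 cultured plate. The remaining fraction was larger in Six2-expressing wells, by 1.39-fold (1.06 to 1.81) and 1.71-fold (1.29 to 2.26). Within plates, Hmga2 was 1.08-fold higher (1.02 to 1.15) in Six2-expressing than in Six2-negative wells before culture, and 1.85-fold (1.40 to 2.42) and 1.504-fold (1.16 to 1.94) higher after E12.5 and E11.5 culture.

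Depth moved with the Six2 class: median counts were 9671 against 5765 uncultured, 14375 against 8465 after E12.5 culture and 10134 against 8775 after E11.5 culture. Without wells deeper than 3 times the plate median the difference in the remaining Hmga2 fraction was 1.87-fold (1.40 to 2.47) and 2.51-fold (1.86 to 3.38). Among wells of at least 5000 counts it was 1.35-fold (1.03 to 1.76) and 1.75-fold (1.32 to 2.33).

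For the other members compared in both classes, the interval of the difference between them included 1. On the E11.5 cultured plate Igf2bp3 was 4.01-fold lower (3.14 to 5.21) in Six2-expressing and 4.03-fold lower (3.44 to 4.73) in Six2-negative wells, and the ratio between the classes was 1.01 (0.740 to 1.35). For Igf2bp1 that ratio was 0.997 (0.751 to 1.31), for Igf2bp2 1.00 (0.741 to 1.35) and for Hmga1 0.862 (0.454 to 1.55). On the E12.5 cultured plate it was 0.831 (0.622 to 1.10), 1.13 (0.849 to 1.49), 1.07 (0.786 to 1.44) and 1.26 (0.707 to 2.20), in the same order. Lin28b went from 53 to 4 counts in Six2-expressing wells, 2.98-fold lower (1.10 to 11.4), and from 22 to 3 counts in Six2-negative wells, 14.7-fold lower (4.40 to 76.5), after E11.5 culture, with a ratio between classes of 4.95 (0.767 to 36.6). Of the 7 Lin28b counts of the E11.5 cultured plate, 4 came from leukocyte-like wells, described below, so no difference between the Six2 classes is read. After E12.5 culture both Six2 classes held 0 Lin28b counts.

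Counted by the 2-fold rule, 5 of 6 members were lower in Six2-expressing wells of the E11.5 cultured plate (13.6% of genes) and 5 of 6 in its Six2-negative wells (9.88%). On the E12.5 cultured plate it was 5 of 6 (15.2% of genes) and 5 of 6 (12.1%). In each of these 4 comparisons Igf2bp2 was the exception, between 1.64-fold and 1.76-fold lower. The classes are parts of the plates on which the members were chosen. Nothing is therefore read from these counts of members, or from those of the classes below, against the share of all genes. With Six2-expressing wells taken as those with at least 2 Six2 counts, 3 of 6 were lower on the E11.5 cultured plate. The share of all genes was not computed for that alternative.

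Cycling wells, those with at least 3 of 10 markers of dividing cells, made up 81.0% of the uncultured plate, 42.0% of the E12.5 and 30% of the E11.5 cultured plate. Hmga2 was lower after culture within each state: 12.45-fold lower (10.5 to 14.9) in cycling and 15.8-fold lower (13.1 to 18.99) in other wells of the E11.5 cultured plate, 13.6-fold (11.4 to 16.4) and 14.3-fold (11.48 to 18.0) on the E12.5 cultured plate. Hmga1 differed between the states. It stood at 181 CPM in cycling and 82.6 CPM in other uncultured wells, 2.19-fold apart (1.45 to 3.47), and at 38.8 and 15.3 CPM, 2.54-fold apart (1.58 to 4.16), after E11.5 culture. After E12.5 culture its values were 30.1 and 23.5 CPM, a ratio of 1.28 (0.754 to 2.22).

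In cycling wells 5 of 6 members were lower on both cultured plates (12.1% of genes on the E11.5 and 12.9% on the E12.5 plate). In wells that were not cycling 6 of 6 were lower after E11.5 culture (13.0% of genes) and 5 of 5 after E12.5 culture (14.7%). Igf2bp2 there stood just past the line, 2.09-fold (1.56 to 2.77) and 2.002-fold (1.46 to 2.73) lower.

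Wells with at least 3 markers of epithelium, leukocytes, endothelium or neural cells were set apart by the class with most markers. The remaining wells, 127 with and 136 without Six2 before culture, held fewer than 3 markers of each of these classes. On the E11.5 cultured plate Hmga1 went from 172 to 9.35 CPM in remaining Six2-expressing wells, 4 counts after culture and 18.4-fold lower (7.10 to 68.3), and from 100.1 to 5.59 CPM in remaining Six2-negative wells, 17.9-fold lower (9.50 to 37.3). After E12.5 culture it stood at 38.97 CPM (21 counts) and 9.63 CPM (13 counts) in these classes, 4.42-fold (2.82 to 7.29) and 10.4-fold (5.75 to 20.4) lower. Hmga2 was 8.94-fold (6.94 to 11.7) and 16.5-fold (14.1 to 19.4) lower on the E11.5 cultured plate. Of the members 6 of 6 were lower at least 2-fold in remaining Six2-expressing wells (16.7% of genes). In remaining Six2-negative wells the 6 compared were between 2.06-fold (Igf2bp1) and 29.2-fold (Lin28b, 12 counts against 1, interval 4.32 to 1248) lower. Thus 6 of 6 members were lower at least 2-fold there, beside 1499 of 13003 genes. After E12.5 culture the count of members lower was 4 of 6 in remaining Six2-expressing wells (15.0% of genes). In remaining Six2-negative wells it was 6 of 6 (12.9%).

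Leukocyte-like wells, 21 uncultured and 24 after E11.5 culture, had summed leukocyte markers of 13699 and 9168 CPM and all 10 markers on both plates. The stromal markers summed in them to 964 CPM (5 of 8 found) uncultured and 13446 CPM (8 of 8) after culture, above the leukocyte sum. The class was thus unlike before and after culture, and the part of this in its ratios was not tested. Hmga2 was lower in them than in the plate as a whole before culture, at 536 CPM, and stood at 58.8 CPM after culture, 9.13-fold lower (5.60 to 15.5). Hmga1 went from 200 to 86.8 CPM, 2.31-fold lower (1.36 to 3.93), and Igf2bp3 from 304 to 171 CPM, 1.78-fold lower (1.19 to 2.65). Against remaining Six2-negative wells the fraction left was 7.64 times larger (3.27 to 19.1) for Hmga1 and 2.96 times larger (1.89 to 4.66) for Igf2bp3. One well gave 45.2% of the 31 Hmga1 counts of the cultured leukocyte-like wells, and 5 of the 24 wells held any. By the 2-fold rule 3 of 5 members were lower in this class (10.8% of genes).

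Lin28b and Lin28a after E11.5 culture lay largely in this class: 4 of the 7 Lin28b counts, in 3 wells, and 2 of the 2 Lin28a counts came from leukocyte-like wells. Before culture those wells held 1 Lin28b and 0 Lin28a counts. At such numbers no direction is read.

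Wells that met the neural rule numbered 16 uncultured and 15 after E11.5 culture, but they were not alike. Their neural markers summed to 360 CPM uncultured and 7676 CPM after culture, and the uncultured ones were deep, with a median of 31102 counts against 11638. They are therefore called wells with 3 neural markers. Hmga2 went from 1347 to 70.5 CPM in them, 19.1-fold lower (11.54 to 34.2), Hmga1 from 198 to 42.3 CPM, 4.67-fold lower (2.41 to 10.4), and Igf2bp3 from 411 to 202 CPM, 2.03-fold lower (1.48 to 2.86). Here 5 of 6 members were lower (16.9% of genes), and 3 of 6 when each well had equal weight, for which the share of all genes was not computed.

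Epithelium-like wells numbered 16 uncultured, 9 after E12.5 and 5 after E11.5 culture, too few for a ratio. Hmga2 in them stood at 1762, 43.5 and 199.8 CPM. Hmga1 stood at 224, 141 and 479 CPM, the last from 24 counts of which 1 well held 79.2%. Endothelium-like wells, 18 uncultured, 8 after E12.5 and 7 after E11.5 culture, had Hmga2 at 521, 67.5 and 43.6 CPM, and Lin28b at 31.7 CPM uncultured and 0 counts on both cultured plates. Their endothelial markers summed to 6821, 5240 and 3228 CPM and their stromal markers to 222, 6702 and 13891 CPM, so these wells were not alike either.

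**Figure D5:**
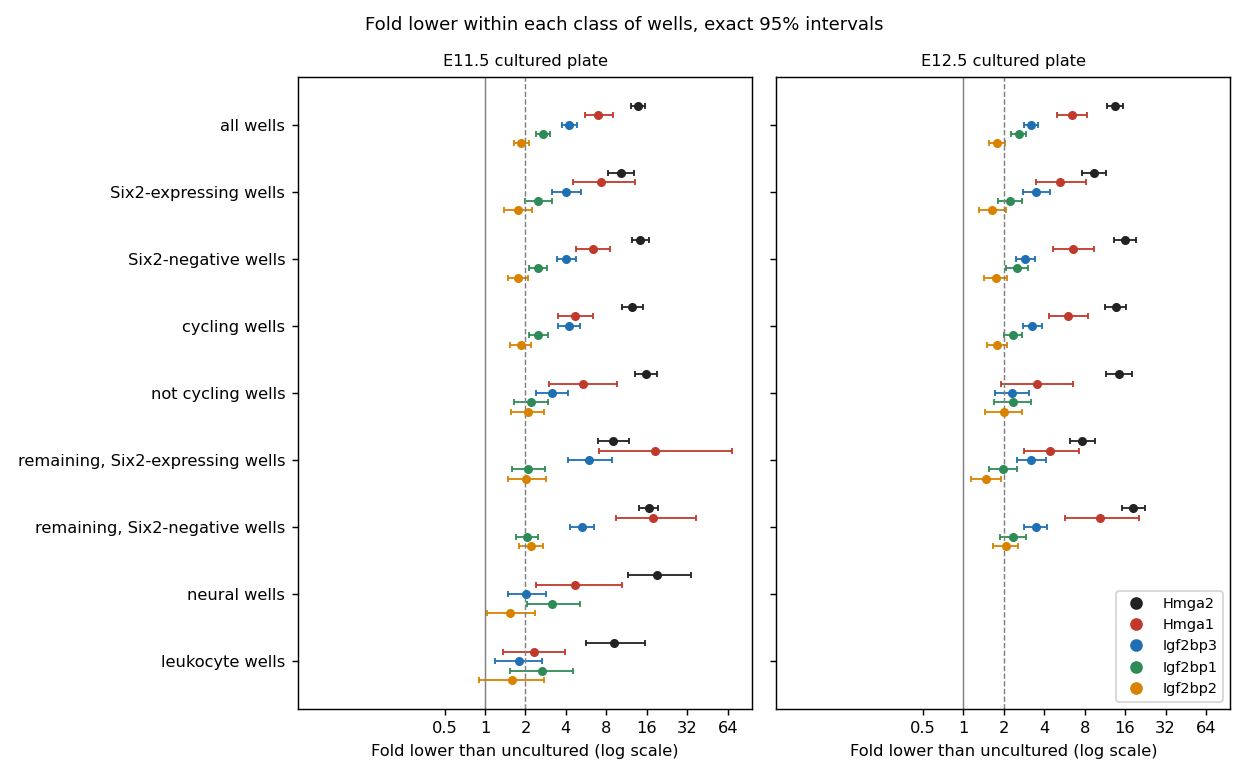
Fold by which each gene was lower than on the uncultured plate (x axis, log scale, exact 95% intervals) within each class of wells (y axis), for both cultured plates; the solid line marks no difference and the dashed line 2-fold. Hmga2 is at least 7.67-fold lower in each class shown, while Hmga1 ranges from 2.31-fold in leukocyte wells to 18.4-fold in remaining Six2-expressing wells of the E11.5 cultured plate.

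Wells that received more than 1 cell, 42 on each cultured plate, shared their plates with the single-cell wells and are not an independent sample. All 42 were used, of which 38 on the E12.5 and 36 on the E11.5 cultured plate had at least 1000 counts. Hmga2 stood in them at 235 CPM on the E12.5 and 185 CPM on the E11.5 cultured plate, 2.44-fold (1.97 to 3.01) and 1.95-fold (1.56 to 2.42) above the single-cell wells. It was still 5.52-fold (4.70 to 6.54) and 7.02-fold (5.84 to 8.50) below the uncultured plate. Hmga1 was 5.71-fold (4.13 to 7.94) and 2.66-fold (1.79 to 3.92) above the single-cell wells. At 156 CPM on the E12.5 cultured plate it was 1.12-fold below the uncultured plate, with an interval of 0.907 to 1.39. Lin28b had 1 and 0 counts there.
Of the members 2 of 5 differed 2-fold between multi-cell and single-cell wells of the E12.5 cultured plate (20.8% of genes) and 1 of 5 on the E11.5 cultured plate (15.3%). How many cells each of these wells held is not stated in the labels.

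Genes around the maturation of let-7 were compared on the same plates. Of 11 genes on a let-7 processing list, 0 were higher and 2 lower on the E11.5 cultured plate. On the E12.5 cultured plate it was 0 and 1. Over all genes 20.9% and 18.9% were higher and 11.3% and 13.0% lower. The list includes the microRNA host gene Mir99ahg, which is not itself a processing gene. Xpo5, which exports precursors from the nucleus, was 3.16-fold (1.94 to 5.36) and 2.11-fold (1.32 to 3.51) lower. Drosha, the nuclear processing enzyme, was 2.55-fold (2.14 to 3.05) and 1.63-fold (1.38 to 1.93) lower. Zcchc6, which adds uridine to precursors, was 1.68-fold (1.34 to 2.11) and 1.57-fold (1.22 to 2.01) higher. The median log2 ratio of the list was -0.52 and -0.50, beside 0.07 and -0.01 over all genes compared. Nothing about the list is read from the counts of genes past 2-fold.

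Of 22 further genes known as let-7 targets, 2 were higher and 5 lower on the E11.5 cultured plate, and 1 and 6 on the E12.5 cultured plate, with a median log2 ratio of -0.42 and -0.78. Over all genes, again 20.9% and 18.9% were higher and 11.3% and 13.0% lower. Arid3b was 6.95-fold (4.42 to 11.48) and 8.89-fold (4.97 to 17.5) lower. Mycn, a growth-promoting transcription factor of nephron progenitors, was 4.97-fold (4.08 to 6.09) and 7.46-fold (5.70 to 9.95) lower. Irs2, an adaptor of insulin signalling, was 2.36-fold (1.94 to 2.87) and 2.21-fold (1.79 to 2.73) higher, and Cdk6 2.02-fold (1.70 to 2.42) and 1.87-fold (1.54 to 2.28) higher. The median log2 ratio over all genes compared was 0.07 and -0.01. A part of let-7 in these values was not tested.

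Of 7 other HMG chromatin proteins, 0 were higher (20.9% of all genes) and 2 lower (11.3%) on the E11.5 cultured plate, and 1 (18.9%) and 2 (13.0%) on the E12.5 cultured plate. Hmgb3, expressed in stem and progenitor cells, was 4.71-fold (4.17 to 5.32) and 4.24-fold (3.72 to 4.86) lower. Hmgn1 was 2.13-fold (2.005 to 2.27) and 1.65-fold (1.55 to 1.76) lower, Hmgb2 1.41-fold (1.21 to 1.63) and 2.40-fold (1.96 to 2.95) lower. Hmgn3 was 1.94-fold (1.65 to 2.27) and 2.14-fold (1.81 to 2.53) higher.

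Of 12 fetal growth genes, 1 was higher (20.9% of all genes) and 5 lower (11.3%) on the E11.5 cultured plate, and 1 (18.9%) and 4 (13.0%) on the E12.5 cultured plate. Mycn, which is on this list too, and Mdk, a growth factor of embryonic mesenchyme, had the lowest ratios. Mdk was 4.34-fold (4.17 to 4.53) and 3.36-fold (3.22 to 3.50) lower. Dlk1, an imprinted inhibitor of differentiation, was 3.82-fold (3.58 to 4.08) and 2.25-fold (2.09 to 2.43) higher. Smo, the hedgehog signal transducer, was 1.62-fold (1.43 to 1.84) and 1.82-fold (1.60 to 2.08) higher.

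Among 8392 genes with a mean of at least 20 CPM, likeness was taken as the root mean square difference of centred log2 levels over the 6 groups of plate and Six2 class. Nearest to Hmga2 were Crabp2 (0.40), Aldh1a2 (0.46), Crabp1 (0.51), Col2a1 (0.57) and Hmga1 (0.60). Crabp1 and Crabp2 bind retinoic acid inside cells, Aldh1a2 makes it, and Col2a1 is a cartilage collagen. Crabp2 stood at 227, 20.4 and 15.6 CPM and Aldh1a2 at 693, 113 and 86.0 CPM on the uncultured, E12.5 and E11.5 cultured plates. Of the other members Igf2bp3 was at 0.88, Igf2bp1 and Lin28b at 1.08 and Igf2bp2 at 1.31. For Lin28b the nearest were Dimt1 (0.08), Prc1 (0.09), Mis18a (0.10), Rnf5 (0.10) and Cox17 (0.10); the 10 CPM added before the logarithm compress its few counts, so these genes are nearest on that scale alone.

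Since the members were lower together, their promoters were searched for 3 short motifs on both strands, over 250 bases before the RefSeq start. The promoters of 6 of the 7 genes were in the table used; Igf2bp1 was not. The E-box CACGTG, bound by MYC and MYCN among others, was in those of Lin28b, 49 bases before the start, and Igf2bp3, 23 bases before it, and in 6.02% of 32851 mouse promoters. It was not found in the others. GGGCGG, present in 32.7% of promoters, was found for Hmga1, Hmga2 and Igf2bp2, and CCAAT, present in 33.8%, for Lin28b and Igf2bp3. A match describes these letters only. The 100 bases before the start are shown for both genes with the E-box, in capitals, and for Hmga2, which has none. All lie on the minus strand of GRCm38.p6: Lin28b at chr10:45470202-45470301, Igf2bp3 at chr6:49214955-49215054 and Hmga2 at chr10:120476470-120476569.
Lin28b: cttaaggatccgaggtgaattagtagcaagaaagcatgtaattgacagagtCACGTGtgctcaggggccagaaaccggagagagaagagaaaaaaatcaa
Igf2bp3: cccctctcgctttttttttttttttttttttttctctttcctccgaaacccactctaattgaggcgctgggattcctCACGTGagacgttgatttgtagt
Hmga2: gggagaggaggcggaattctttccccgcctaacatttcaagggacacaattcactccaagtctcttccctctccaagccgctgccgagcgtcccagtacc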

How the data were processed

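Per the labels' protocols, kidneys and explants were dissociated with collagenase, sorted into plates of 384 wells with a FACSAria II and sequenced by SORT-seq, which reads transcript ends with a well barcode and a molecular identifier. Per the submitters' processing notes, the tools and build were STAR 2.6.1a, featureCounts 1.5.2 and GRCm38.p5. The authors deposited expected counts per gene and well, the identifiers corrected for 4096 possible ones. Each table lists features with at least 1 count, so a gene not listed had 0.

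Kept wells had at least 1000 nuclear-encoded counts and at most 30% mitochondrial counts, outside the control wells and those with more than 1 cell. Counts were summed over wells and given per 1000000 (CPM). Levels have exact Poisson, ratios and shares exact binomial and differences of ratios exact conditional 95% intervals. Those of ratios and of differences of ratios were checked on simulated Poisson counts. That check cannot show how they hold for counts that cluster in wells. With 1 plate per group no test was run. A gene was compared with at least 10 counts in the pair, zeros standing at a floor of 3 counts; a class of wells needed 10 wells on both plates. Genes of each related list were named by the 2 highest and 2 lowest ratios with at least 50 counts, of which some are printed; nearest genes by the 5 smallest differences. Whole-number counts were taken for thinning by rounding. The members and lists were chosen with earlier results of these data known. Python 3.11.15, numpy 2.4.6 and scipy 1.17.1 were used. Alternatives are in the closing section.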

Additional observations from a re-analysis of the deposited data

Results flagged for a closer look

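Of 46 differences between classes of wells in the fraction left after culture, 11 had an exact interval that leaves out 1. Intervals of this kind miss about 5 in 100 only where counts vary by counting error alone. Counts here also varied between wells, and the comparisons share wells, so 11 of 46 is not read against that rate. The intervals were not adjusted for their number, and wells of 1 plate are not replicates. Hmga2 was retained more in Six2-expressing wells, by 1.39-fold after E11.5 and 1.71-fold after E12.5 culture. Among the remaining wells, with fewer than 3 markers of each other class, the difference was 1.85-fold (1.35 to 2.50) and 2.40-fold (1.78 to 3.23). Hmga1 was retained 2.35-fold more (1.07 to 5.37) in the remaining Six2-expressing wells after E12.5 culture. In leukocyte-like wells after E11.5 culture the fraction left was larger than in remaining Six2-negative wells by 7.64-fold for Hmga1, 2.96-fold for Igf2bp3 and 1.81-fold (1.04 to 3.03) for Hmga2. A large part of the Hmga1 counts of the cultured leukocyte-like wells came from 1 well, as given above. The stromal markers of the leukocyte-like wells summed to 964 CPM uncultured and 13446 CPM after culture, against leukocyte markers of 13699 and 9168 CPM, so the class was unlike on the 2 plates, and the part of this was not tested. In wells with 3 neural markers it was larger by 3.85-fold (1.35 to 10.7) for Hmga1 and 2.597-fold (1.74 to 3.81) for Igf2bp3. Igf2bp3 after E12.5 culture was retained less in cycling than in other wells, with a ratio of 0.711 (0.509 to 0.988).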

How the results depend on the processing

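Of 344 alternative values, 42 moved beyond counting error or, for a count of genes, past 1.5 times. Among 155 ratios of members on whole plates, 14 did. A turn in direction was looked for only in ratios of at least 2-fold and in the Six2 difference of Hmga2, and 0 turned. Counts of genes, shares of wells and smaller ratios were not judged for direction. The count of members lower stayed within 1.5 times of 6 and 5 on whole plates under each alternative. In 1 draw of 1000 counts per well the log2 ratio of Hmga2 was -4.11 (E11.5 cultured) and -3.15 (E12.5 cultured) over uncultured. Between the cultured plates it was 0.96. There 1 of 4 members differed 2-fold (16.9% of genes), against 0 of 5 without thinning (12.8%) and 0 of 5 with equal well weights (14.8%). At least 2 Six2 counts gave 3 members lower in Six2-expressing wells after E11.5 culture. Equal well weights gave 3 in wells with 3 neural markers, 1 let-7 target higher after E11.5 culture and 0 fetal growth genes higher after E12.5 culture. The share of all genes was not computed beside these counts, and the cause was not tested. Without deep wells the Six2 difference of Hmga2 was 1.87 and 2.51. At 3000 counts per well, over 296, 191 and 288 wells, Hmga2 was found in 90.5%, 19.4% and 20.1%. The average over all draws was added after seeing the data. No paired analysis was possible because each group is 1 plate. Depth limits Lin28a and Lin28b, and a class needing 4 markers left under 10 wells for some classes.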
